A study of Homo sapiens with 24 samples.

Results

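The endoplasmic reticulum (ER) chaperone and unfolded protein response genes described here are 35 of the 60623 genes in the count table, taken by gene symbol from a list of the pathway's genes that was drawn up with earlier results of these data known. They comprise the luminal chaperones and their cochaperones, the disulfide isomerases, the stress sensors and their transcription factors, the genes of ER-associated degradation, and parts of the translocon. All 35 were found, and 34 had enough counts to be tested; DERL3, a derlin, had 2 to 11 counts per library and was not tested.

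The cells were HT-29, an established human colon adenocarcinoma line, either wild type (WT) or with the receptor gene GPRC5A knocked out (KO). Each genotype was kept for 8 h in medium with 0.1% DMSO, with 50 µM 7-fluorotryptamine (7FTA), with 10 ng/mL of the cytokine TNFa, or with TNFa and 7FTA together. There were 3 libraries in each of the 8 groups. Each KO group therefore has a WT group under the same treatment, and the DMSO libraries are the controls of both genotypes. The dose of 7FTA beside TNFa was taken to be the same 50 µM. Whether the wells with 7FTA or TNFa also held DMSO is not given in the sources used here. In comparisons against DMSO the agent and a difference in vehicle therefore cannot be told apart. Whether the KO cells are 1 clone or several, and whether the 3 libraries came from separate cultures, is not given in the sources used here, so p-values measure only the spread between these libraries. Sample titles carry a serial number that places all libraries without TNFa before those with it; what it stands for is not given in the sources used here.

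The ER folds proteins that enter the secretory pathway. Misfolded proteins draw the chaperone BiP away from sensors in the ER membrane, and IRE1, ATF6 and PERK then signal to the nucleus. IRE1 splices the mRNA of XBP1 so that it encodes an active transcription factor, ATF6 is cut to release another, and both raise chaperones, isomerases and the degradation machinery. In the gut, a second form of IRE1, encoded by ERN2, is known from the mucus-secreting epithelium. Gene counts do not separate spliced from unspliced XBP1 mRNA and say nothing of the cleavage of ATF6.

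ATF6 and spliced XBP1 are known to act through ER stress elements in promoters. These are shown because a far larger share of members than of all genes searched carries them, although most members carry neither form. The members were picked as genes of this pathway, so the share is no separate evidence for it. The ER stress element was searched as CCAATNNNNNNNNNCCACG and its shorter form, ER stress element II, as ATTGGNCCACG, on both strands, over 300 bases from 250 before to 50 after each RefSeq start. The first was found in the promoters of 7 of the 31 members in the RefSeq table (HSPA5, HSP90B1, CALR, CANX, PDIA6, XBP1 and CRELD2), which is 22.6%, against 0.0919% of the 27195 genes searched. That background is 25 genes with a match, the 7 members among them. The short form was found in 3 members (HERPUD1, SDF2L1 and HYOU1), 9.68%, against 0.0699% of all genes (19 genes, the 3 members among them). The CCAAT box alone, which is part of both, was found in 26 of 31 members (83.9%) and in 39.7% of all genes. PDIA3, ERN2, DERL1 and DERL3 were not searched. In the windows below (GRCh38.p14, read 5′ to 3′ on the strand of the gene), capitals mark the fixed letters of each match. A match of the long form reads CCAAT as ATTGG and CCACG as CGTGG where it lies in the opposite orientation. The short form is to be read against its own letters as searched. Its match in HERPUD1 lies as searched, and those in SDF2L1 and HYOU1 lie in the opposite orientation.
HSPA5, chr9:125241376-125241424, minus strand: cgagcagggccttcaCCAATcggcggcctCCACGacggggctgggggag
CALR, chr19:12938369-12938417, plus strand: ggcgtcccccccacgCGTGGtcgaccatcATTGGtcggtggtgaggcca
CRELD2, chr22:49918539-49918587, plus strand: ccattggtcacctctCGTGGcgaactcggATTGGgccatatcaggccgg
HERPUD1, chr16:56932010-56932050, plus strand: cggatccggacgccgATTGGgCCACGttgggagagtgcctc
SDF2L1, chr22:21642099-21642139, plus strand: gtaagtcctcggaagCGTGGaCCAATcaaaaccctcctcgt
HYOU1, chr11:119057259-119057405, minus strand: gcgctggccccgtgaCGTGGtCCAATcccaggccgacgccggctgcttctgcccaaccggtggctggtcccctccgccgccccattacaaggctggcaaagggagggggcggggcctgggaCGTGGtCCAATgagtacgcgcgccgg
The HYOU1 window holds the short form at 2 places. The core TGACGTG, known as part of the unfolded protein response element, was found in TXNDC5, HYOU1 and TXNDC11, 3 of 31 members, against 2.39% of all genes; in HYOU1 it overlaps 1 of the short-form matches. A match of letters is a description of the window and not of binding.

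Total counts were 16782857 to 27247407 per library, and the biological coefficient of variation over all tested genes was 4.06%. Levels are given as CPM, the usual depth-scaled read count, after TMM scaling of library sizes. GPRC5A itself lay between 202 and 249 CPM in WT libraries and between 64.7 and 80.6 CPM in KO libraries, so that 31.6% to 33.7% of its RNA was still counted in KO cells. Of 10 colon epithelial markers, 9 had a mean of at least 1 CPM (KRT8 8920 CPM; CDX1 0.384 CPM). None of the 5 fibroblast and none of the 5 endothelial markers reached 1 CPM, and COL1A2, CDH5 and CLDN5 were at 0 in every library. Of the 6 plasma and B cell markers, SDC1, which epithelium also expresses, was the 1 above 1 CPM. The 8 goblet and secretory markers summed to 201 to 244 CPM in WT libraries and 621 to 795 CPM in KO libraries, most of it AGR2 (177 to 736 CPM); MUC2 lay at 2.92 to 11.2 CPM, and ZG16 and CLCA1 stayed under 0.22 CPM. Of the 5 other leukocyte markers, LYZ (1610 CPM) and CD14 (4.65 CPM) were above 1 CPM, and PTPRC, common to all leukocytes, had 0.0327 CPM. The goblet marker difference moves with genotype, and its part in the genotype results below was not tested. In bulk RNA, fewer cells of a kind and less RNA per cell cannot be told apart.

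The members were abundant genes: the median of the 34 tested members was 105 CPM, against 22.4 CPM over the 14059 genes tested. Set against exon length, the calcium-binding lectin chaperone CALR stood highest at 458.6 RPKM (CPM over the exon length in kilobases) as a mean of 24 libraries, followed by the proline isomerase PPIB at 417.1, BiP (HSPA5) at 368.0 and HSP90B1, the ER form of HSP90, at 298.8. The disulfide isomerases PDIA4, PDIA3, P4HB and PDIA6 lay between 161.2 and 259.8 RPKM. The IRE1 genes were the scarcest tested members: ERN2 had 1.64 RPKM and ERN1, the general form of IRE1, 1.54, while the sensor ATF6 had 8.00. XBP1, the substrate of IRE1, had 101.2 RPKM. DERL3 had 0.0742 RPKM. Of its 3796 exon bases, 2923 lie opposite SMARCB1 (83.9 CPM), and the strand setting of the counting is not given. Its count may therefore not reflect the level of its RNA.

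**Figure D1:**
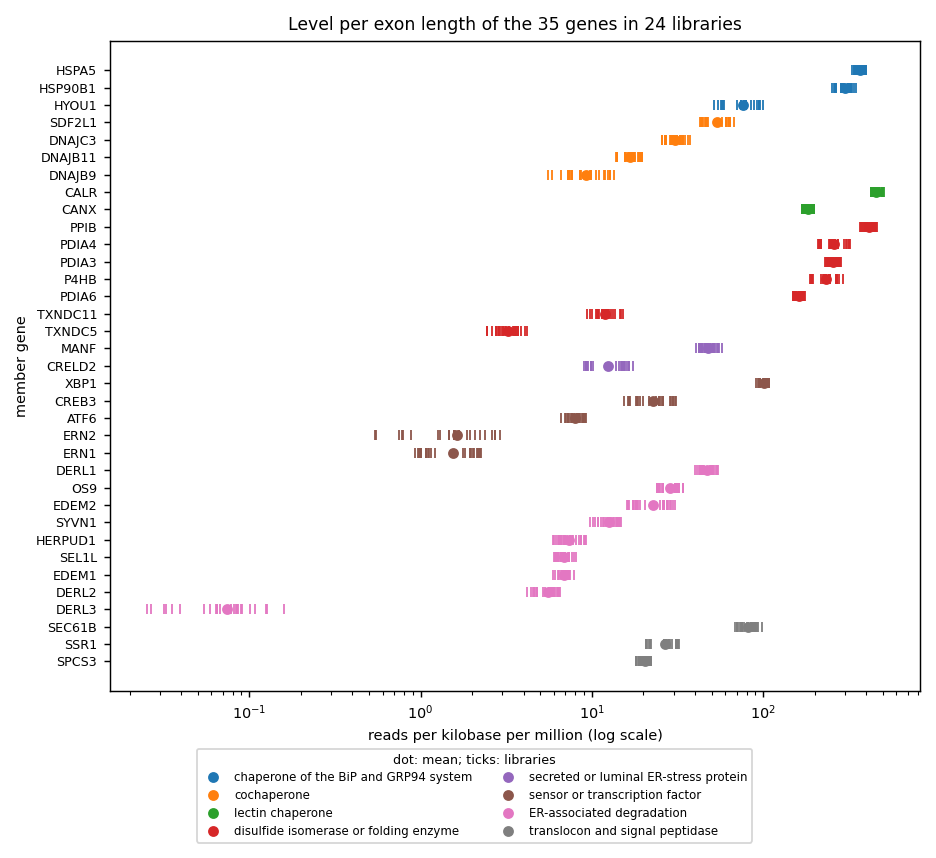
Level of each of the 35 genes per exon length (RPKM, log axis), with 1 tick per library and a dot at the mean of 24 libraries, coloured by role. Folding enzymes and chaperones lie at the right, from 161.2 to 458.6 for the most abundant, and the sensors ERN1 and ERN2 near 1.6; DERL3 is far below at 0.0742.

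Loss of GPRC5A came with higher RNA of most members, and the largest differences were in a sensor and in luminal proteins rather than in BiP. Averaged over the 4 treatments, 21 of 34 members rose and 6 fell in KO cells (edgeR quasi-likelihood test, Benjamini-Hochberg adjusted p under 0.05 over all genes tested). Among all genes 36.3% were higher and 34.7% lower. The members' median log2 difference was 0.10, against 0.01 over all genes. ERN2 roughly doubled, CRELD2, EDEM2 and SDF2L1 followed, and HSPA5 had a difference of -0.002 ± 0.014 on the log2 scale (± is the SE here and below; adjusted p = 0.92).

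The same direction was counted under each treatment, over 4 comparisons that share no library. With DMSO 16 members were higher and 3 lower, where 24% and 24.1% of all genes were. With 7FTA the counts were 20 and 3, against 24.6% and 24.9% of all genes. With TNFa they were 18 and 4, against 25.5% and 25.1%, and with TNFa and 7FTA 18 and 4, against 25.8% and 26.1%. The higher counts are above the background share each time and the lower counts are below it. Shares of all genes, here and throughout, are not matched for level. The tested members had a median of 105 CPM against 22.4 CPM, and small changes are called more readily in abundant genes. Some calls were narrow in edgeR. With DMSO, TXNDC5 (adjusted p = 0.0495) was lost in 5 of 6 fits that left out 1 library (up to 0.412). With 7FTA, SPCS3 (0.0477) and PPIB (0.0492) were each lost in 4 of 6 (up to 0.372 and 0.229). Such fits called 18 to 21 members with DMSO, 21 to 23 with 7FTA, 17 to 22 with TNFa and 20 to 22 with both. In all 4 comparisons 14 members were higher (CRELD2, DERL2, DNAJB11, EDEM2, ERN2, HSP90B1, HYOU1, MANF, OS9, P4HB, PDIA4, SDF2L1, SSR1 and TXNDC11), where 15.9% of all genes were, and CREB3, DERL1 and DNAJC3 were lower, where 17% of all genes were. Of the 14, single libraries ended a call of 3: HSP90B1, given below, DERL2 and TXNDC11. DERL2 was lost with TNFa without replicate 2 of WT TNFa or 3 of KO TNFa (adjusted p up to 0.295), and with both agents without replicate 1 of WT TNFa+7FTA or 1 or 2 of KO TNFa+7FTA (up to 0.17). TXNDC11 was lost with TNFa without replicate 2 of KO TNFa (0.0826).

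**Figure D2:**
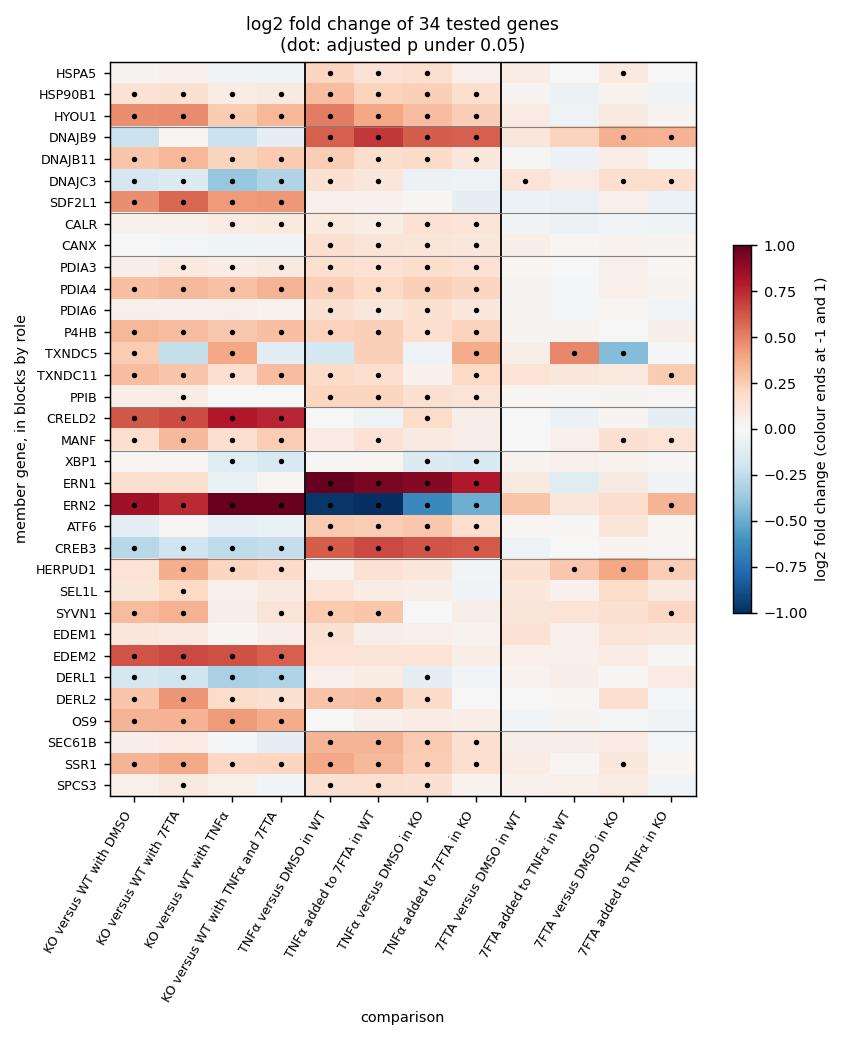
The log2 fold change of the 34 tested genes (rows, in blocks by role) in 4 genotype, 4 TNFa and 4 7FTA comparisons (columns); red is higher, blue lower, the colour ends at -1 and 1, and a dot marks an adjusted p under 0.05. Genotype and TNFa columns carry many dots, while 7FTA columns carry between 1 and 7 each. ERN1, CREB3 and DNAJB9 are the reddest rows under TNFa and ERN2 the bluest.

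Among the sensors, ERN2 was the member with the largest genotype difference. In WT cells it measured 6.45, 6.33 and 7.36 CPM with DMSO, 7.88, 8.32 and 8.37 with 7FTA, 3.75, 2.74 and 3.88 with TNFa and 2.71, 3.93 and 4.41 with both. In KO cells it measured 13.6, 11.1 and 11.9 CPM with DMSO, 13.1, 14.6 and 13.5 with 7FTA, 7.98, 7.36 and 7.87 with TNFa and 9.70, 10.4 and 9.27 with both. Under each treatment every KO library was above every WT library. The mean log2 difference was 1.04 ± 0.06 (adjusted p = 7.65e-21). This is a scarce transcript, with 44 to 401 counts per library, and 42 of its 4998 exon bases lie opposite PLK1 (136 CPM).

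The other sensors and factors differed little or were lower. ERN1 had a mean log2 difference of 0.07 ± 0.04 (adjusted p = 0.135). CREB3, a transcription factor held in the ER membrane, was lower by 0.24 ± 0.03 on the log2 scale (adjusted p = 1.41e-10), with 34.6 to 59.0 CPM in WT libraries (median 47.6) and 29.4 to 49.7 in KO libraries (median 38.2). Those ranges overlap because TNFa raised the gene in both genotypes; within each treatment the groups did not overlap. XBP1 fell by 0.06 ± 0.02 (adjusted p = 0.000784), and ATF6 by 0.06 ± 0.02 (adjusted p = 0.0365). XBP1 measured 303.1 to 327 CPM in WT libraries (median 310.8) and 274.9 to 327.3 in KO libraries (median 299.6). The ATF6 call is a narrow one: DESeq2 gave an adjusted p of 0.0554, and it was lost without any 1 of 9 of the 24 libraries (WT DMSO 3, WT 7FTA 1 and 3, WT TNFa 3, KO DMSO 3, KO 7FTA 2, KO TNFa 1, and KO TNFa+7FTA 1 and 2, by replicate number), reaching 0.0977.

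In the BiP system the exchange factor HYOU1 and HSP90B1 rose, and the difference in BiP was near 0. HYOU1, which exchanges the nucleotide of BiP, measured 399 to 608 CPM in WT libraries (median 513) and 538 to 769 in KO libraries (median 668). Its mean log2 difference was 0.38 ± 0.02 (adjusted p = 3.69e-17). HSPA5 measured 1286 to 1556 CPM in WT libraries (median 1454) and 1328 to 1510 in KO libraries (median 1466), so the ranges lie on each other. HSP90B1 measured 1182 to 1532 CPM in WT libraries (median 1313) and 1330 to 1633 in KO libraries (median 1452). It rose by 0.12 ± 0.02 (adjusted p = 3.41e-09). Its separate call with TNFa (0.07 ± 0.03, adjusted p = 0.0385) was lost without replicate 1 or 2 of WT TNFa or replicate 2 or 3 of KO TNFa, with adjusted p up to 0.237. With TNFa and 7FTA it was lost without replicate 2 of WT TNFa+7FTA (adjusted p = 0.124).

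Of the 4 cochaperones, 2 rose and 2 fell. SDF2L1, a partner of DNAJB11, measured 47.2 to 52.1 CPM in WT libraries (median 49.4) and 63.4 to 74.1 in KO libraries (median 69.4), with no overlap over all treatments. Its mean log2 difference was 0.47 ± 0.02 (adjusted p = 7.67e-24), and that of DNAJB11 was 0.27 ± 0.02 (adjusted p = 8e-18). DNAJC3, a BiP cochaperone that also restrains PERK, went the other way, with 166 to 209 CPM in WT libraries (median 186) and 143 to 174 in KO libraries (median 156). It fell by 0.24 ± 0.02 (adjusted p = 1.55e-16), and in each treatment every KO library was below every WT library. DNAJB9, a cochaperone that targets misfolded proteins for degradation, fell by 0.12 ± 0.05 on average (adjusted p = 0.019) and was called under no single treatment.

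The luminal stress proteins CRELD2 and MANF were both higher in KO cells. CRELD2 measured 46.2 to 52.5 CPM in the 12 WT libraries (median 48.2) and 71.0 to 89.4 in the 12 KO libraries (median 79.5). No KO library came down to the WT range, and the mean log2 difference was 0.71 ± 0.03 (adjusted p = 2.7e-29). MANF rose by 0.23 ± 0.02 (adjusted p = 3.9e-15).

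Of the 7 folding enzymes tested, 5 rose and none fell on average. P4HB, the founding disulfide isomerase, rose by 0.30 ± 0.02 (adjusted p = 6.89e-23) and PDIA4 by 0.32 ± 0.02 (adjusted p = 4.51e-24). PDIA3, which works with the lectin chaperones, rose by 0.08 ± 0.01, and PDIA6 by 0.04 ± 0.02. TXNDC11, a membrane thioredoxin that works beside the EDEM mannosidases, rose by 0.27 ± 0.03 (adjusted p = 7.38e-13). Of the lectin chaperones, CALR rose by 0.07 ± 0.02 (adjusted p = 0.000103) and CANX had -0.03 ± 0.02 (adjusted p = 0.0948).

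Degradation genes were mostly higher on average, 7 of the 8 tested, with DERL1 as the exception, where 36.3% of all genes were higher. Under single treatments 4 were called higher with DMSO, 6 with 7FTA, 4 with TNFa and 5 with both. Of all genes 24%, 24.6%, 25.5% and 25.8% were. EDEM2, which trims mannose from misfolded glycoproteins, measured 30.7 to 39.0 CPM in WT libraries (median 34.1) and 48.0 to 58.3 in KO libraries (median 52.7). OS9, the lectin that reads that trimmed glycan, measured 123 to 135 CPM in WT libraries (median 127) and 158 to 177 in KO libraries (median 165). Neither pair of ranges overlapped, and the mean log2 differences were 0.63 ± 0.03 (adjusted p = 2.48e-24) and 0.37 ± 0.02 (adjusted p = 1.37e-22). The ubiquitin ligase SYVN1 rose by 0.22 ± 0.02, the derlin DERL2 by 0.27 ± 0.03 and the membrane protein HERPUD1 by 0.23 ± 0.03. DERL1, a derlin of the retrotranslocation pore, measured 348 to 388 CPM in WT libraries (median 359) and 282 to 318 in KO libraries (median 310). It fell by 0.25 ± 0.02 (adjusted p = 2.54e-19). EDEM1 rose by 0.07 ± 0.03 (adjusted p = 0.0142), a call lost without replicate 2 of WT TNFa+7FTA (adjusted p = 0.0657).

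Of the 3 translocon and signal peptidase genes, SSR1, a subunit of the translocon-associated complex, rose by 0.28 ± 0.02 (adjusted p = 1.26e-21). SEC61B of the channel had 0.01 ± 0.02 (adjusted p = 0.841), and SPCS3 of the signal peptidase 0.04 ± 0.02 (adjusted p = 0.056).

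The 3 members that were lower in KO cells under every treatment lay among genes of which more were lower than higher. Around DNAJC3 on chromosome 13, 33 of the 50 nearest tested genes were lower and 7 higher in KO cells, with a median log2 difference of -0.32. Around CREB3 on chromosome 9, 31 were lower and 9 higher (median -0.17), and around DERL1 on chromosome 8, 25 and 15 (median -0.12). HSPA5 and SEC61B, also on chromosome 9, had neighbours with medians of -0.17 and -0.09. Around members that rose, the medians were -0.01 for ERN2, 0.10 for EDEM2, 0.17 for CRELD2 (47 neighbours) and 0.17 for SDF2L1. The part of the chromosomal region in these differences was not tested.

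**Figure D3:**
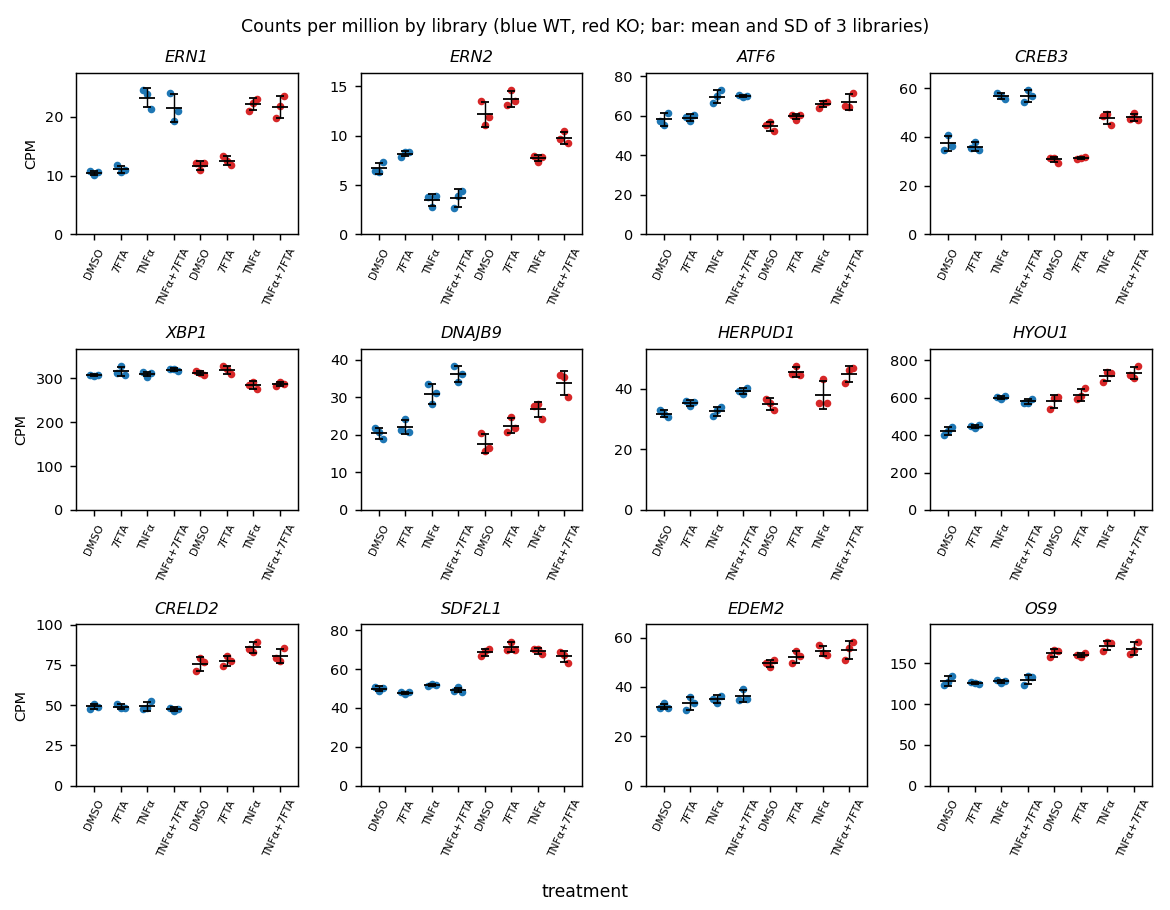
Level (CPM) in every library of 12 members (axes from 0), with WT libraries in blue and KO libraries in red under the 4 treatments, and the mean and SD of 3 libraries in black. CRELD2, SDF2L1, EDEM2 and OS9 split by genotype with no overlap, ERN1, CREB3 and DNAJB9 step up with TNFa in both genotypes, and ERN2 steps down with TNFa and up with KO.

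TNFa moved most members upward at 8 h. Averaged over the 4 backgrounds 25 of 34 members rose and 2 fell, where 27.6% of all genes were higher and 29.6% lower, and the members' median was 0.14 against -0.01 over all genes. The IRE1 gene ERN1 nearly doubled, CREB3 and DNAJB9 each rose by 0.63 on the log2 scale, HSPA5 rose by 0.14 and HSP90B1 by 0.23, and the gut form ERN2 fell.

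Both genotypes and both 7FTA states gave this pattern. TNFa against DMSO raised 23 members and lowered 1 in WT cells (19.5% and 18.9% of all genes), and raised 20 and lowered 3 in KO cells (16.1% and 14.8%). Added to 7FTA, TNFa raised 23 and lowered 1 in WT cells (17.7% and 16.3% of all genes), and raised 18 and lowered 2 in KO cells (16.2% and 15%). In all 4 comparisons 16 members were higher, where 9.3% of all genes were: ATF6, CALR, CANX, CREB3, DNAJB11, DNAJB9, ERN1, HSP90B1, HYOU1, P4HB, PDIA3, PDIA4, PDIA6, PPIB, SEC61B and SSR1. ERN2 was lower in all 4, as 7.62% of all genes were. Of the 16, single libraries ended a call of 3. That of CALR with TNFa added to 7FTA in WT cells (adjusted p = 0.0412) held without replicate 1 of WT TNFa+7FTA and was lost without each of the other 5 libraries (up to 0.226). Those of DNAJB11 and ATF6 with TNFa added to 7FTA in KO cells were lost without replicate 1 or 2 of KO 7FTA or 1 of KO TNFa+7FTA (up to 0.121) and without replicate 3 of KO TNFa+7FTA (0.0809).

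The pair of IRE1 genes moved in opposite directions. ERN1 measured 10.7, 10.1 and 10.5 CPM in WT cells with DMSO and 24.4, 23.9 and 21.4 with TNFa. In KO cells it measured 12.1, 10.9 and 12.2 CPM with DMSO and 21.0, 22.4 and 23.1 with TNFa. With 7FTA present it went from 11.8, 10.6 and 10.9 to 24.0, 19.3 and 21.0 CPM in WT cells and from 13.3, 12.4 and 11.7 to 19.8, 21.9 and 23.5 in KO cells. No library with TNFa fell into the range of those without it, and the mean log2 change was 0.95 ± 0.04 (adjusted p = 2.99e-25). ERN2, whose values are given above, fell by 0.81 ± 0.06 (adjusted p = 1.98e-16), and within each genotype its TNFa libraries lay below all others.

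The other factors split as well. CREB3 rose from 34.8, 40.9 and 36.2 CPM with DMSO to 57.8, 56.8 and 55.5 with TNFa in WT cells. In KO cells it rose from 31.5, 31.3 and 29.4 CPM to 48.4, 49.5 and 44.8. The mean log2 change was 0.63 ± 0.03 (adjusted p = 7.44e-25), with no overlap in either genotype; 61 and 139 of the 1903 exon bases of CREB3 lie opposite TLN1 (165 CPM) and GBA2 (51.7 CPM). ATF6 measured 52.4 to 61.7 CPM in the 12 libraries without TNFa (median 57.7) and 64.2 to 72.9 in those with it (median 68.2), a mean log2 change of 0.23 ± 0.02 (adjusted p = 1.2e-11). XBP1 fell by 0.07 ± 0.02 (adjusted p = 0.000487) and is described below with the test of the difference between genotypes.

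Of the BiP system all 3 members rose on average. HSPA5 measured 1286 to 1462 CPM without TNFa (median 1357) and 1470 to 1556 with it (median 1500), and rose by 0.14 ± 0.01 (adjusted p = 8.4e-13). HYOU1 rose by 0.36 ± 0.02 (adjusted p = 2.81e-16) and HSP90B1 by 0.23 ± 0.02 (adjusted p = 1.83e-18). HSPA5 libraries with and without TNFa did not overlap, although the step is small; TNFa added to 7FTA in KO cells gave 0.05 ± 0.03 (adjusted p = 0.135).

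Among the cochaperones DNAJB9 had the largest change. It measured 21.7, 20.7 and 18.8 CPM in WT cells with DMSO and 33.4, 28.1 and 31.2 with TNFa, and in KO cells 20.6, 15.7 and 16.5 with DMSO and 27.8, 28.1 and 24.3 with TNFa. The mean log2 change was 0.63 ± 0.05 (adjusted p = 4.58e-13). DNAJB9 shares exon bases with THAP5 (46.5 CPM) and PNPLA8 (30.5 CPM) on the opposite strand. DNAJB11 rose by 0.18 ± 0.02, whereas SDF2L1 had 0.003 ± 0.023 (adjusted p = 0.921) and DNAJC3 0.04 ± 0.02 (adjusted p = 0.0561).

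The lectin chaperones and 6 of the 7 folding enzymes rose, with log2 changes from 0.11 ± 0.02 for CALR to 0.22 ± 0.02 for PDIA4. PPIB rose by 0.18 ± 0.02, P4HB by 0.22 ± 0.02 and TXNDC11 by 0.15 ± 0.03. All 3 translocon and signal peptidase members rose: SSR1 by 0.28 ± 0.02, SEC61B by 0.27 ± 0.02 and SPCS3 by 0.12 ± 0.02. SEC61B measured 81.5 to 95.2 CPM without TNFa (median 88.4) and 96.6 to 117 with it (median 106), so the libraries did not overlap.

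Of the 8 degradation genes tested, 5 rose and none was called lower on average, where 27.6% of all genes were higher and 29.6% lower. TNFa against DMSO called 3 higher in WT cells (19.5% of all genes). In KO cells it called 1 higher and 1 lower (16.1% and 14.8%), which is near the share of all genes. Added to 7FTA, TNFa raised 2 in WT cells and 0 in KO cells (17.7% and 16.2% of all genes). SYVN1, EDEM1, EDEM2, DERL2 and OS9 rose by 0.05 to 0.19 on the log2 scale. HERPUD1 had 0.07 ± 0.03 (adjusted p = 0.0656), SEL1L, the partner of SYVN1, 0.06 ± 0.03 (adjusted p = 0.0544), and DERL1 0 ± 0.02 (adjusted p = 0.985). The OS9 call (0.05 ± 0.02, adjusted p = 0.0379) was weak: DESeq2 gave 0.0647, and it survived leaving out 11 of the 24 libraries 1 at a time (WT DMSO 3, WT 7FTA 1 and 2, WT TNFa 2, WT TNFa+7FTA 1, KO DMSO 2 and 3, KO 7FTA 3, KO TNFa 1, and KO TNFa+7FTA 1 and 2, by replicate number) but no other, with adjusted p up to 0.0892.

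**Figure D4:**
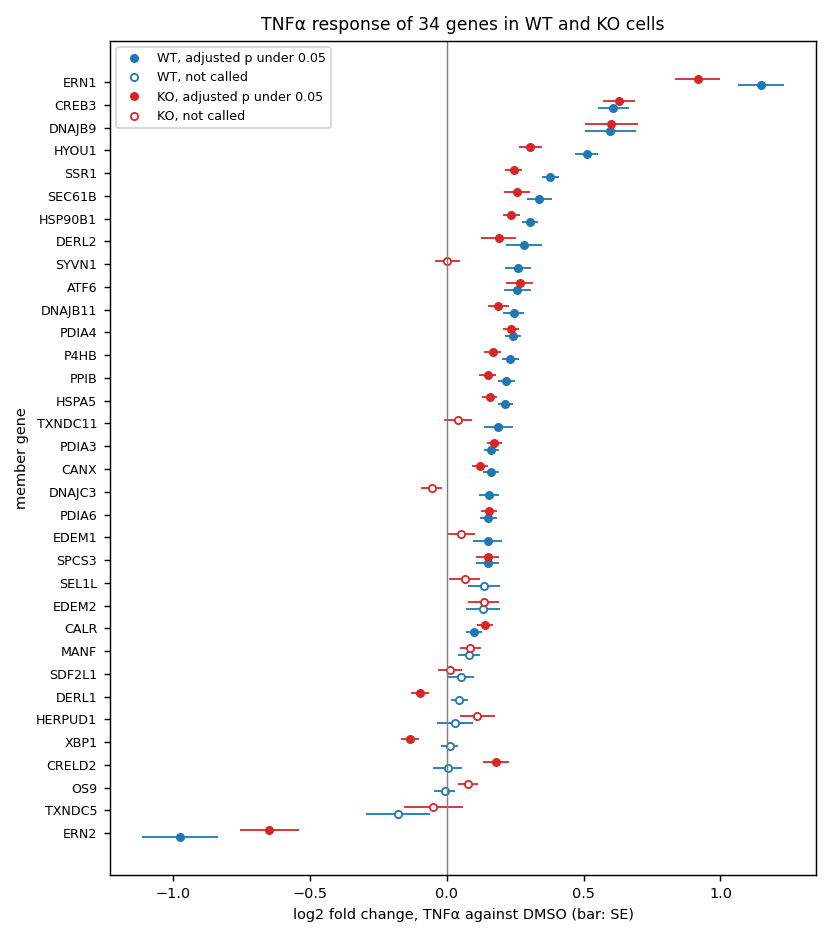
TNFa against DMSO in WT (blue) and KO (red) cells for the 34 tested genes: log2 fold change with its SE as a bar, filled where the adjusted p was under 0.05. ERN1, CREB3 and DNAJB9 lead in both genotypes and ERN2 is at the bottom; for HYOU1, SSR1, SYVN1 and DNAJC3 the KO point lies to the left of the WT point.

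The response to TNFa differed between genotypes for 6 members in 1 or the other 7FTA state, by tests of the difference itself. Without 7FTA, 0 members had a response that was higher in KO cells and 3 a lower one (2.05% and 1.5% of all genes); under 7FTA 1 was higher and 2 lower (1.58% and 0.982%). DESeq2 called 6 members in the interaction without 7FTA. Single libraries decide several of the calls, and the interactions without and under 7FTA share no library.

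Without 7FTA the 3 were DNAJC3, SYVN1 and HYOU1. DNAJC3 went from 166, 167 and 175 CPM to 195, 190 and 182 with TNFa in WT cells, and from 150, 152 and 151 to 144, 150 and 143 in KO cells. The log2 change was 0.16 ± 0.04 in WT cells and -0.06 ± 0.04 in KO cells. The difference was -0.21 ± 0.05 (adjusted p = 0.0107) and was lost without replicate 1 of WT TNFa (adjusted p = 0.0647). SYVN1 went from 53.5, 57.5 and 56.0 CPM to 64.9, 68.7 and 66.0 in WT cells, and from 63.5, 70.7 and 73.4 to 68.4, 70.0 and 70.0 in KO cells. Its difference of -0.26 ± 0.07 (adjusted p = 0.0166) was lost without replicate 1 of WT DMSO, 2 of WT TNFa, or 2 or 3 of KO DMSO, with adjusted p up to 0.100. The exons of SYVN1 share 398 bases with FAU (425 CPM) on the same strand and 356 with MRPL49 (179 CPM) on the other, and reads from those bases cannot be told apart here. HYOU1 rose from 399, 421 and 444 CPM to 603, 591 and 608 in WT cells, and from 538, 598 and 605 to 685, 738 and 731 in KO cells. Its difference of -0.21 ± 0.06 had an adjusted p of 0.0498, which held without replicate 3 of WT DMSO or replicate 1 of KO DMSO and was lost without each of the other 10 libraries (adjusted p up to 0.148).

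Under 7FTA the 3 were XBP1, ERN2 and SSR1. XBP1 measured 311, 327 and 308 CPM with 7FTA and 320, 321 and 317 with TNFa and 7FTA in WT cells, against 327, 321 and 310 and then 283, 291 and 286 in KO cells. The KO libraries with TNFa were the lowest of all for this gene, and the difference was -0.18 ± 0.05 (adjusted p = 0.0187). It was lost without replicate 1 or 3 of WT 7FTA, 1 of KO 7FTA or 1 of WT TNFa+7FTA (adjusted p up to 0.0854). For ERN2 the log2 change with TNFa was -1.14 ± 0.13 in WT cells and -0.48 ± 0.10 in KO cells, a difference of 0.65 ± 0.17 (adjusted p = 0.0183), lost without replicate 3 of WT 7FTA, 1 of KO 7FTA, 1 of WT TNFa+7FTA or 2 of KO TNFa+7FTA (adjusted p up to 0.114). SSR1 went from 250, 249 and 247 to 324, 306 and 303 CPM in WT cells and from 315, 334 and 320 to 361, 364 and 356 in KO cells. Its difference of -0.16 ± 0.04 (adjusted p = 0.0287) was lost without any replicate of WT 7FTA, 2 of KO 7FTA, 1 of WT TNFa+7FTA or 3 of KO TNFa+7FTA (adjusted p up to 0.164).

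The count for the 3 called members without 7FTA fell to 1 when replicate 1 of WT DMSO, 2 of KO DMSO, or 1 or 2 of WT TNFa was left out. Under 7FTA it fell to 1 without replicate 1 of WT 7FTA or 1 of KO 7FTA and to 0 without replicate 3 of WT 7FTA or 1 of WT TNFa+7FTA, and rose to 5 without replicate 2 of WT TNFa+7FTA. A contrast chosen after seeing the data averaged both states over all 24 libraries. It called 1 member higher and 6 lower (4.56% and 3.56% of all genes): ERN2 (0.49 ± 0.12, adjusted p = 0.00576), and SYVN1 (-0.24 ± 0.05), DNAJC3 (-0.19 ± 0.04), HYOU1 (-0.17 ± 0.04), XBP1 (-0.16 ± 0.03), SSR1 (-0.15 ± 0.03) and DERL1 (-0.12 ± 0.03), the last 6 with adjusted p from 0.000345 to 0.00813. Its value was below 0 for 27 of 34 members, against 49.3% of all genes, and the members' median was -0.06 against 0.002.

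**Figure D5:**
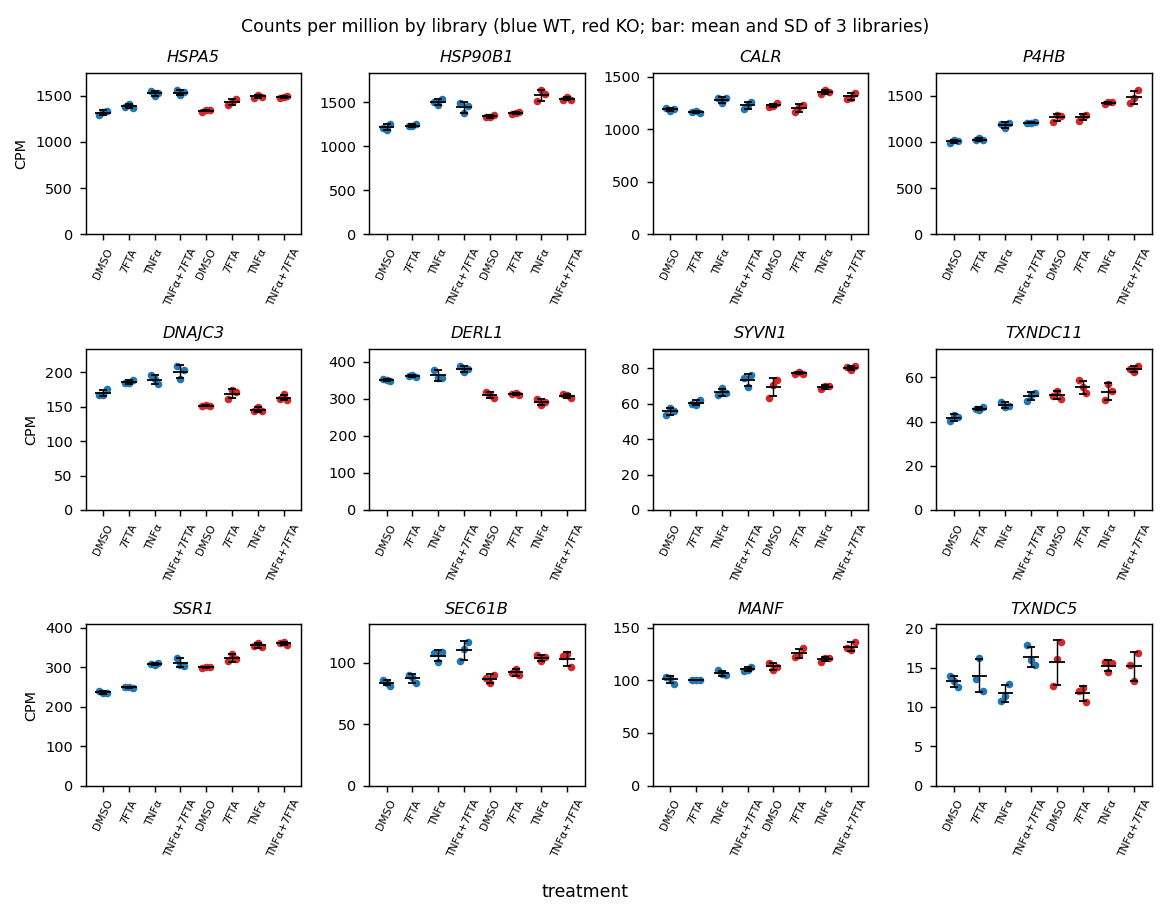
Level (CPM) in every library of 12 further members (axes from 0), with WT in blue, KO in red, and the mean and SD of 3 libraries in black. HSPA5, HSP90B1, SSR1 and SEC61B step up with TNFa, DNAJC3 and DERL1 are lower in KO cells, and TXNDC5 shows wide scatter at 10.7 to 18.3 CPM.

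The changes with 7FTA at 8 h were small and mostly upward. Averaged over the 4 backgrounds 12 of 34 members rose and 1 fell, where 8.86% of all genes were higher and 7.58% lower; the members' median was 0.04 against -0.002. None was above 0.27 on the log2 scale, and those over 0.2 were in HERPUD1, DNAJB9 and ERN2. No member was called in all 4 separate comparisons, where 0.526% of all genes were higher and 0.0996% lower in all 4. Of the members 24 were called in none, and the share of all genes called in none was not counted.

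In WT cells 7FTA against DMSO raised 1 member and lowered 0, where 1.44% and 0.605% of all genes were called. That member was DNAJC3 (0.13 ± 0.04, adjusted p = 0.0481), and the call was lost without replicate 1 or 2 of WT DMSO or any replicate of WT 7FTA (adjusted p up to 0.226). In KO cells 6 rose and 1 fell (1.45% and 0.932% of all genes): HSPA5, DNAJB9, DNAJC3, HERPUD1, MANF and SSR1, and TXNDC5. The 7 became 2 without replicate 2 of KO DMSO or 3 of KO 7FTA and 3 without replicate 3 of KO DMSO or 2 of KO 7FTA. Added to TNFa, 7FTA raised 2 and lowered 0 in WT cells (2.99% and 2.55% of all genes), HERPUD1 and TXNDC5; none remained called without replicate 1 of WT TNFa, and 1 without replicate 2 of WT TNFa or 1 of WT TNFa+7FTA. In KO cells it raised 7 and lowered 0 (3.99% and 3.53%): DNAJB9, DNAJC3, HERPUD1, ERN2, MANF, SYVN1 and TXNDC11. This count was 4 without replicate 1 or 3 of KO TNFa, and 4 in a fit of the compared groups alone.

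HERPUD1, which recruits misfolded proteins to the SYVN1 ligase, had the largest mean change. In WT cells it measured 33.0, 31.7 and 30.7 CPM with DMSO and 36.1, 34.2 and 35.7 with 7FTA, and 30.8, 32.9 and 33.8 with TNFa and 39.3, 38.3 and 40.1 with both. In KO cells it measured 36.7, 35.4 and 32.9 CPM with DMSO, 44.8, 47.5 and 44.5 with 7FTA, 35.2, 43.3 and 35.3 with TNFa and 41.8, 46.2 and 46.7 with both. Libraries with and without 7FTA separated in 3 of the 4 backgrounds, and the mean log2 change was 0.26 ± 0.03 (adjusted p = 6.44e-09). In KO cells with TNFa they overlapped through replicate 2 of KO TNFa.

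DNAJB9 rose by 0.26 ± 0.05 (adjusted p = 0.000102). It measured 21.4, 24.3 and 20.9 CPM with 7FTA in WT cells and 38.3, 33.9 and 36.1 with TNFa and 7FTA; in KO cells these were 20.7, 24.6 and 21.8, and 36.0, 35.3 and 30.1. ERN2 rose by 0.23 ± 0.06 (adjusted p = 0.0062). Its separate call in KO cells with TNFa (0.34 ± 0.11, adjusted p = 0.0462) was lost without any 1 of the 6 libraries compared.

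Cochaperone DNAJC3 (0.13 ± 0.02), ligase SYVN1 (0.16 ± 0.02) and thioredoxin TXNDC11 (0.15 ± 0.03) also rose on average. TXNDC11 measured 49.6, 57.2 and 53.7 CPM with TNFa and 63.9, 62.3 and 65.1 with TNFa and 7FTA in KO cells, its largest step (0.26 ± 0.05, adjusted p = 0.00033). SYVN1 stepped from 68.4, 70.0 and 70.0 to 80.6, 78.9 and 81.2 CPM in the same libraries (0.21 ± 0.05, adjusted p = 0.00166). SEL1L, EDEM1, MANF, SSR1, DERL1 and HSPA5 rose by 0.04 to 0.11 on average. The HSPA5 call (0.04 ± 0.01, adjusted p = 0.0221) was lost without replicate 1 of WT DMSO or 3 of KO 7FTA, with adjusted p up to 0.0538, and that of DERL1 (0.05 ± 0.02, adjusted p = 0.0204) without replicate 3 of WT TNFa (adjusted p = 0.0527).

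CALR was the single member that fell, by 0.04 ± 0.02 (adjusted p = 0.0498). It measured 1177 to 1369 CPM in the 12 libraries without 7FTA (median 1246) and 1158 to 1349 in those with it (median 1222), almost the same range. The call held when 1 of 8 libraries was left out (replicate 2 of WT DMSO, WT 7FTA and WT TNFa, 3 of WT TNFa+7FTA, KO 7FTA and KO TNFa+7FTA, and 1 of KO DMSO and KO TNFa) and was lost without each of the other 16, with adjusted p up to 0.126.

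No member's response to 7FTA was called different between genotypes or between TNFa states. The genotype by 7FTA interaction called 0 members higher and 0 lower with edgeR (0.00711% and 0.0142% of all genes), with 2 members under an unadjusted p of 0.05 and 0 called by DESeq2. The lowest of these p-values was that of TXNDC5, with a difference of -0.50 ± 0.11 on the log2 scale (adjusted p = 0.144). The 7FTA by TNFa interaction called 0 and 0 in WT cells (0.0782% and 0.199% of all genes; 2 members under an unadjusted p of 0.05; 0 by DESeq2). In KO cells it called 0 and 0 (0.121% and 0.455%; 4 members; 0 by DESeq2).

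TXNDC5, a disulfide isomerase, behaved unlike the rest and was low and scattered. It measured 12.6, 16.1 and 18.3 CPM in KO cells with DMSO and 12.1, 12.4 and 10.7 with 7FTA, a fall of 0.43 ± 0.11 (adjusted p = 0.0198). In WT cells with TNFa it measured 10.8, 11.4 and 12.9 CPM and with TNFa and 7FTA 17.8, 15.9 and 15.3, a rise of 0.48 ± 0.12 (adjusted p = 0.00934). The fall was lost without replicate 2 or 3 of KO DMSO or 1 or 3 of KO 7FTA (adjusted p up to 0.236) and the rise without replicate 1 or 2 of WT TNFa or 1 of WT TNFa+7FTA (adjusted p up to 0.0678). Its exons share 2658 of 4387 bases on the same strand with the readthrough gene BLOC1S5-TXNDC5, which is at 0 in every library. How reads over bases shared by 2 genes were counted is not given in the sources used here. The counts of TXNDC5 may therefore hold only part of its reads, and its low level may not be that of its RNA.

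The counts of members with and without an ER stress element match are set side by side here, with no test. Of the 10 with a match to either form, 7 were higher and 1 lower in KO cells on average (median log2 difference 0.09), and of the 21 searched without one 12 were higher and 4 lower (0.12). With TNFa 6 of 10 rose and 1 fell (0.12) against 18 and 0 of 21 (0.18), and with 7FTA 2 rose and 1 fell (0.02) against 8 and 0 (0.04). Among all genes 36.3% were higher and 34.7% lower in KO cells, 27.6% and 29.6% with TNFa, and 8.86% and 7.58% with 7FTA. The genotype differences ran from -0.06 to 0.71 among the 10 with a match and from -0.24 to 0.63 among the 21 without. Among the sequences shown, HSPA5 (-0.002) and CRELD2 (0.71, the highest of the 10) both carry the long form.

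Further genes of the pathway were counted in lists that hold none of the members. Of 22 tested targets of XBP1 and ATF6 outside the members, 18 were higher and 1 lower in KO cells, 7 and 0 with 7FTA, and 18 and 2 with TNFa, all averaged over backgrounds. WFS1, a calcium-handling ER membrane protein, was higher in KO cells by 0.98 ± 0.03, and the COPII coat gene SEC24D by 0.62 ± 0.02; the cochaperone and reductase DNAJC10 rose by 0.55 ± 0.02 with TNFa. Of 16 genes of the PERK and ATF4 arm, 8 were higher and 7 lower in KO cells, 4 and 2 with 7FTA, and 12 and 0 with TNFa. PPP1R15A, which reverses the PERK signal, rose by 0.99 ± 0.02 with TNFa and was lower in KO cells (-0.56 ± 0.02). Of the 4 genes of this list with the smallest p for genotype, PPP1R15A and CEBPB (-0.69 ± 0.02) were lower in KO cells. The stress-induced regulator NUPR1 was higher by 3.56 ± 0.11 and the lipoprotein receptor VLDLR by 0.99 ± 0.07. Both were scarce, with means of 5.15 and 5.48 CPM. TRIB3 rose by 0.34 ± 0.03 with 7FTA. These counts stand beside 36.3% and 34.7% of all genes for genotype, 8.86% and 7.58% for 7FTA, and 27.6% and 29.6% for TNFa.

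Of 21 further translocon, signal peptidase and oligosaccharyltransferase genes, 13 were higher and 2 lower in KO cells, 6 and 0 with 7FTA, and 19 and 1 with TNFa; SEC61A1, the channel subunit, rose by 0.31 ± 0.02 with TNFa. Of 20 further degradation genes, the counts were 5 and 5, 5 and 0, and 11 and 3, and VCP, the ATPase that extracts substrates, rose by 0.25 ± 0.02 with TNFa. The cytosolic and mitochondrial heat shock genes differed in direction, with 4 higher and 9 lower of 15 in KO cells, 2 and 4 with 7FTA, and 5 and 8 with TNFa. HSPH1, a cytosolic exchange factor related to HYOU1, was lower in KO cells by 1.03 ± 0.02 on the log2 scale. Of 11 tested genes of the CREB3 family and of secretory-cell ER, 8 were higher and 0 lower in KO cells, 4 and 0 with 7FTA, and 5 and 5 with TNFa. The disulfide isomerase AGR2, which is also a goblet marker above, differed by 1.77 ± 0.02 and the factor CREB3L1 by 1.54 ± 0.03 between genotypes, and CREB3L1 fell by 0.80 ± 0.03 with TNFa.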

How the data were processed

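Poly(A) RNA of HT-29 cells was sequenced in 24 libraries. The deposited table holds whole-number read counts per gene, made by the authors with STAR 2.6.1d and featureCounts 1.6.4 on GRCh38, per the submitters' processing notes, which also name DESeq2 1.20.0; annotation and strand setting are not given in the sources used here. Each column was matched to 1 library by its label.

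Counts were fitted with edgeR 4.0.16 (R 4.3.3, limma 3.58.1): filtering by expression over the 8 groups left 14059 of the 30061 genes with any count, TMM factors ran from 0.944 to 1.05, and 1 robust quasi-likelihood model over all 24 libraries gave every contrast, with Benjamini-Hochberg adjustment over all genes tested and a threshold of 0.05. Standard errors were taken as the size of the log2 change over the root of its F statistic. Means over 4 treatments or backgrounds weight each equally. CPM are scaled by TMM, and RPKM use GENCODE 29 exon lengths. The script was tested on simulated data. Counting precision of a library is limited by its depth; intervals cover only the spread between libraries.

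Every pair of libraries within a group (24 pairs) varied beyond sampling noise, with a chi-square over its degrees of freedom from 2.07 to 6.63, so none was counted as a copy; mitochondrial reads took 0.569% to 1.15%. Members with an exon overlapping another gene number 23, and for 10 the other gene had at least 10% of the member's level.

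Members, gene lists and tests were chosen with earlier results of these data known. Library values or ranges are given for up to 6 members with the largest mean change in each direction per factor. They are also given for HSPA5, HSP90B1, XBP1, ERN1, ERN2, ATF6, HERPUD1 and DNAJB9, and for members called in a genotype by TNFa test. For some of these the single library values cover only part of the 8 groups. Of other genes at most 4 per list with the smallest p were eligible. TXNDC5 and further members were described after their values were seen. Alternatives were DESeq2 1.42.0, its size factors in edgeR, no filter, the replicate number as a block, the compared groups alone, and leaving out each library.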

Additional observations from a re-analysis of the deposited data

Results flagged for a closer look

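For 6 members the log2 change with TNFa differed between KO and WT cells by a test of that difference (KO response minus WT response). Without 7FTA these were DNAJC3 at -0.211 (adjusted p = 0.0107), SYVN1 at -0.257 (adjusted p = 0.0166) and HYOU1 at -0.205 (adjusted p = 0.0498), by edgeR over 12 libraries of 4 groups within the fit of all 24. With 7FTA present they were XBP1 at -0.175 (adjusted p = 0.0187), SSR1 at -0.163 (adjusted p = 0.0287) and ERN2 at 0.654 (adjusted p = 0.0183), by the same edgeR test. In 5 of these the KO response was the lower one, and for ERN2, which fell with TNFa in both genotypes, the fall was smaller in KO cells. In the other 7FTA state the values had the same sign but missed the threshold: -0.161 for DNAJC3, -0.218 for SYVN1, -0.135 for HYOU1, -0.145 for XBP1, -0.134 for SSR1 and 0.325 for ERN2.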

How the results depend on the processing

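No result reversed under any setting tried. Correlations between the deviations of same-numbered libraries were weak (r from -0.0649 to 0.119, mean 0.0191). In 0 of 28 pairs of groups were all over 0.1. Even so, 17 of 24 libraries correlated best with their own number, 1 of 3 numbers, so a weak common deviation may be present. The numbers were not used to pair libraries in the main fit, and a fit with them as a block is given here. The replicate block raised the count of members called in the genotype by TNFa interaction from 3 to 5 both without and under 7FTA, lost the KO call of TXNDC5 with DMSO and kept the other 266 of 267 member calls. DESeq2 called 6 members in the interaction without 7FTA and 2 for 7FTA in WT cells (1 in edgeR). The averaged interaction, chosen after seeing the data, called 7. With no filter 7FTA in WT cells called 0 and the genotype by 7FTA interaction 1 (0 with the filter). The compared groups alone called 4 for 7FTA added to TNFa in KO cells (7 in the fit of all libraries). Leaving out 1 library gave 0 to 1 for 7FTA in WT cells, 2 to 6 for 7FTA in KO cells (7 with all), 0 to 3 for 7FTA added to TNFa in WT cells and 4 to 6 in KO cells, 1 to 3 and 0 to 5 for the genotype by TNFa interaction without and under 7FTA, and 0 to 1 for genotype by 7FTA. The other ranges were 18 to 21, 21 to 23, 17 to 22 and 20 to 22 for KO with DMSO, 7FTA, TNFa and both, 26 to 30 for their mean, 11 to 13 for the mean of 7FTA, 23 to 24 and 22 to 22 for TNFa in WT and KO cells, 21 to 24 and 18 to 20 with 7FTA, and 26 to 29 for the mean of TNFa. Of 267 member calls, 221 held without each library in turn and 46 were lost at least once; 20 were lost under another setting (11 with no filter, 7 each with DESeq2 and with the compared groups alone, 3 with DESeq2's size factors and 1 with the block). DERL3 had too few counts to test, and most of its exon bases lie opposite SMARCB1.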
